A study of Mus musculus with 12 samples.

Results

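SCA1high and SCA1low cells were compared within LY6D+ cells sorted as luminal epithelium of the mouse prostate. The comparison used the 2 libraries labelled LY6D+SCA1high and the 2 labelled LY6D+SCA1low, 4 of the 12 libraries in all, chosen by their cell population label. All mice were wild-type C57BL/6 animals aged 6 to 8 weeks, and the labels name no treatment. Cells carrying CD31, CD45 or Ter119, the surface proteins of endothelium, leukocytes and red cells, were gated out. The luminal cells were then sorted into 6 populations, LY6D+ or LY6D- cells at SCA1high, SCA1Int (intermediate) or SCA1low, with 2 libraries per population. The Lexogen QuantSeq kit, used on 10 to 20 ng of total RNA, reads the 3′ ends of polyadenylated transcripts, so a count is a tally of 3′ tags. Levels are given as CPM, a gene's share of the counts of its library, scaled by the library's TMM factor. The replicates are called biological in the series text, but no label says whether they were separate animals or pools. In all 6 populations the library names of replicate 1 share 1 prefix and those of replicate 2 another, and no label says what the prefixes stand for. The p-values therefore measure the spread between these libraries.

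Luminal cells line the prostatic ducts and make the proteins of prostatic fluid, many of them under the control of androgens. Secreted proteins enter the endoplasmic reticulum (ER), where chaperones and disulfide isomerases fold them before export. SCA1, the product of Ly6a, is a surface protein of the Ly6 family that is known for marking progenitor cells in several tissues, and in the prostate it is high in luminal cells close to the urethra. LY6D is another member of that family.

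The 4 libraries held 8436185 to 18234711 counts and 7512 to 11867 genes with at least 10 counts. LY6D+SCA1high replicate 2 had the fewest of both. Across genes, which are not independent replicates, both SCA1high libraries correlated at 0.66 and both SCA1low libraries at 0.67. Each of the 4 correlated better with a LY6D+SCA1Int library (0.69 to 0.73) than with its own replicate. For 10 of all 12 libraries the closest match came from another population. One of these, LY6D-SCA1low replicate 2, which enters the fit, did so at 0.73 against 0.68 with its own replicate, a gap no wider than that of some others. Counts are given with and without LY6D+SCA1high replicate 2 and LY6D-SCA1low replicate 2, named below as the set-aside libraries. A fit without a library leaves its population with 1 library, whose spread is taken from the other populations. Calls and adjusted p-values of such fits are therefore no separate check of a call. Because these are bulk samples, fewer cells of a type and less RNA per cell cannot be told apart.

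The luminal markers Krt8, Krt18, Epcam and Cd24a were detected in all 4 libraries. Krt8, a keratin of simple epithelium, stood at 131 and 120 CPM in SCA1high cells and at 98.7 and 133 CPM in SCA1low cells, so the groups overlapped. Krt18, the partner of Krt8 in filaments, stood at 145 and 161 CPM against 502 and 313 CPM, a log2 fold change of -1.41 ± 0.57 (SE) that did not pass the test (adjusted p = 0.578). The basal genes Krt5, Krt15 and Trp63 were also detected in every LY6D+ library. Krt15 stood at 2626 and 2644 CPM in SCA1high cells and at 1063 and 1223 CPM in SCA1low cells. Krt5 stood at 359 and 608 CPM against 186 and 460 CPM. Both basal keratins thus lay above Krt8 in all 4 libraries. Trp63, a transcription factor of basal cells, stood at 62.2 and 54 CPM in SCA1high cells and at 44.3 and 46.2 CPM in SCA1low cells. The part of basal cells in these libraries was not tested.

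Ly6a checked the gate. Its level was 181 and 245 CPM in SCA1high cells, 44.9 and 55.5 CPM in SCA1Int cells and 3.37 and 13.5 CPM in SCA1low cells. The order follows the sorted protein, and the log2 fold change between the outer groups was 4.65 ± 0.82 (SE; adjusted p = 0.00264). Without LY6D+SCA1low replicate 1 it was 3.9 (adjusted p = 0.0521). Ly6d itself stood at 209 and 397 CPM in SCA1high cells and at 54.7 and 37 CPM in SCA1low cells, although both groups were sorted as LY6D+. That difference, 2.73 ± 1.04 on the log2 scale, did not pass the test (adjusted p = 0.578).

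Of 15270 genes tested, 50 were called (0.327%), that is, had an adjusted p below 0.05 in edgeR's quasi-likelihood test. SCA1high cells were lower for 44 of them (0.288% of tested genes) and higher for 6 (0.0393%). At an unadjusted p below 0.05 there were 855 lower and 459 higher genes. Non-overlapping groups were seen for all 50 called genes, against 21.3% of tested genes for SCA1low above SCA1high and 13.1% for the reverse. The calls rest on the same values, so this is no separate support for them. The lower genes include 9 listed genes of prostatic secretion, and 16 of the 44 were among the 100 most abundant genes. Without both set-aside libraries 64 genes were called, 52 lower and 12 higher, with 47 of the 50 among them. Leaving out LY6D+SCA1high replicate 2 alone gave 64 calls, 59 lower and 5 higher, with 45 of the 50 among them. Scaling by library size alone gave 34 lower and 13 higher genes and moved the median log2 fold change of all tested genes from -0.17 to 0.23. DESeq2 called 1051 genes, 688 lower and 363 higher. Of the 50 called features 6 have another called feature with counts within 2% of their own in each library, and so are not separate signals.

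**Figure D1:**
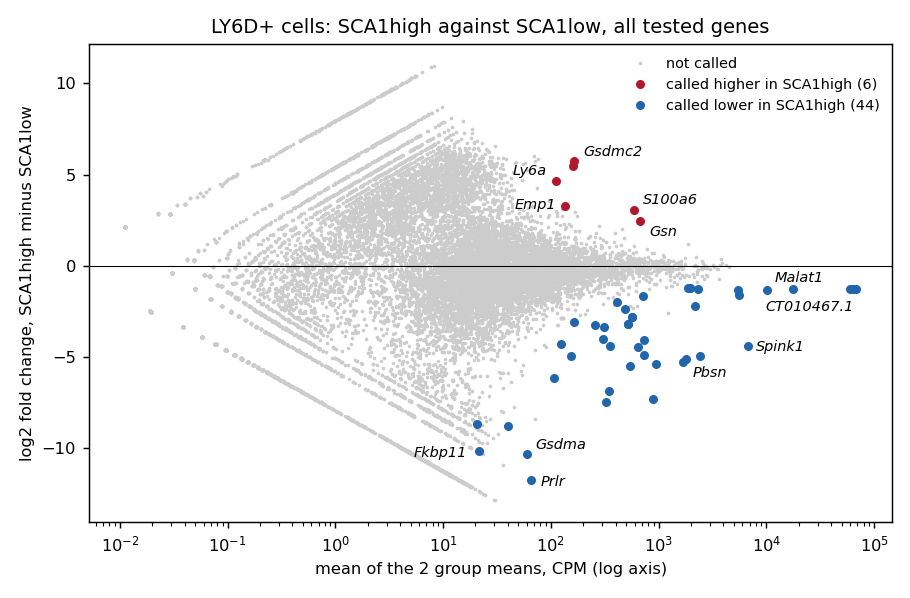
Log2 fold change of SCA1high minus SCA1low in LY6D+ cells (vertical axis) against the mean level in CPM (horizontal axis, log scale) for the 15270 tested genes. Blue points are the 44 genes called lower and red points the 6 called higher; the blue points extend to the most abundant genes on the right, and the red points lie above 100 CPM.

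Besides Ly6a, the genes that rose with SCA1 were S100a6, Emp1, Gsn, Gsdmc2 and Gsdmc3. S100a6 (chr3:90612882-90624181, GRCm38) encodes a small calcium-binding protein. Its level was 991 and 1103 CPM in SCA1high cells, 670 and 449 CPM in SCA1Int cells and 69.5 and 179 CPM in SCA1low cells. Both SCA1high libraries thus lay well above both SCA1low libraries, with the SCA1Int libraries between them. The mean was 1050 ± 79.7 CPM against 124 ± 77.1 CPM (SD, n = 2 each), a log2 fold change of 3.08 ± 0.5 (SE; adjusted p = 0.00101). S100a6 was the one gene called higher that kept its call in all 14 alternative analyses, though without LY6D+SCA1low replicate 1 its log2 fold change was 2.47.

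Emp1 (chr6:135362545-135383173) encodes an epithelial membrane protein. Its level was 148 and 345 CPM at SCA1high, 38.7 and 96.9 CPM at SCA1Int and 19.8 and 30.6 CPM at SCA1low. The SCA1high libraries were the highest pair, and the log2 fold change was 3.29 ± 0.54 (SE; adjusted p = 0.00111). Without LY6D+SCA1high replicate 2 it was 2.29 (adjusted p = 0.00676). Gsn (chr2:35256380-35307892) encodes gelsolin, which severs and caps actin filaments. Gsn stood at 985 and 1291 CPM at SCA1high, 264 and 377 CPM at SCA1Int and 113 and 307 CPM at SCA1low. The SCA1Int and SCA1low libraries overlapped, and both lay below SCA1high by a log2 fold change of 2.44 ± 0.48 between the outer groups (SE; adjusted p = 0.00912). The call for Gsn was lost without LY6D+SCA1high replicate 2 (2, adjusted p = 0.137) and without LY6D+SCA1low replicate 1 (1.82, adjusted p = 0.329). Without LY6D+SCA1low replicate 2 it was 3.03. Gsn is also abundant in fibroblasts and smooth muscle, and it overlaps the feature Gm43128 on the same strand.

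Gasdermins are proteins whose cleaved end can form pores in membranes. The neighbouring genes Gsdmc2 (chr15:63824346-63845177) and Gsdmc3 (chr15:63857724-63878558) rose together. Gsdmc2 stood at 99.3 and 544 CPM at SCA1high, 5.72 and 41.8 CPM at SCA1Int and 1.46 and 10.7 CPM at SCA1low. Gsdmc3 stood at 139 and 490 CPM, 8.09 and 41.3 CPM, and 1.99 and 12.2 CPM in the same order. In each pair of LY6D+ libraries replicate 2 was the higher, and the SCA1high libraries lay above all other LY6D+ libraries. The log2 fold changes were 5.73 ± 1.14 for Gsdmc2 (SE; adjusted p = 0.0103) and 5.47 ± 1.05 for Gsdmc3 (SE; adjusted p = 0.00796). Both calls were lost without LY6D+SCA1high replicate 2, at 3.83 (adjusted p = 0.121) and 4.08 (adjusted p = 0.0672). The highest values, 7.52 and 7.02, came without LY6D+SCA1low replicate 2, and without LY6D+SCA1low replicate 1 they were 4.88 and 4.64. Among windows of 50 bases in the last 500 bases of their transcripts, 31.6% of those of each gene also occur in the other, so a share of tags may have been assigned to either copy. The third and the fourth copy, named here after their values were seen, had similar fold changes without a call: 5.75 ± 1.37 for Gsdmc (adjusted p = 0.0651) and 6.13 ± 3.31 for Gsdmc4 (adjusted p = 0.591).

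**Figure D2:**
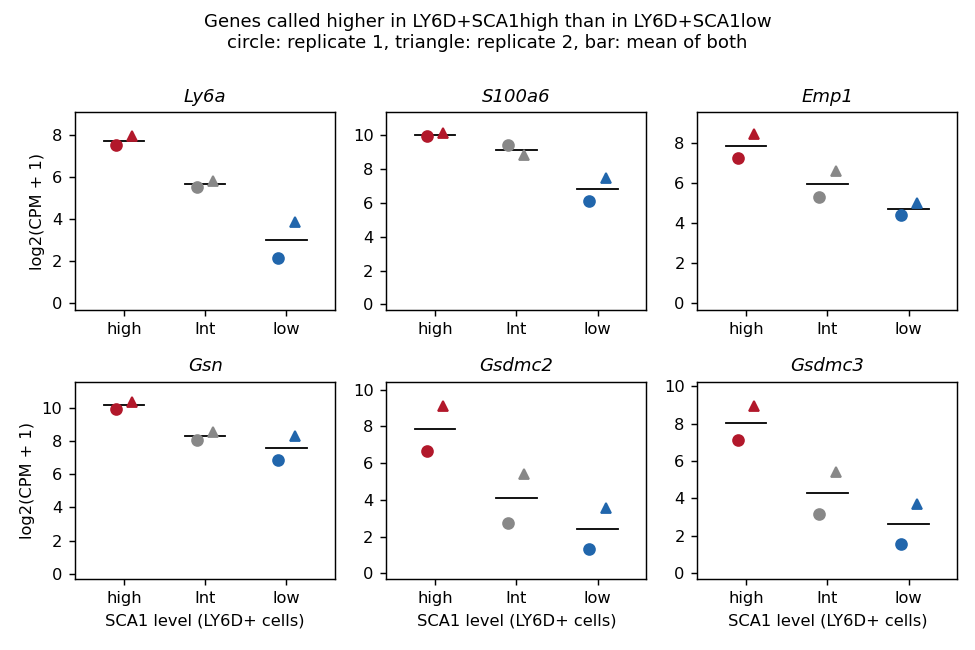
Level of the 6 genes called higher in SCA1high, as log2(CPM + 1) on the vertical axis, by SCA1 level of the LY6D+ cells on the horizontal axis. Circles are replicate 1, triangles replicate 2 and bars the mean of both; all 6 genes are highest at SCA1high, where the replicates of Gsdmc2 and Gsdmc3 lie apart.

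In the list of gasdermins, Emp1, S100 proteins and annexins, 27 of 30 genes were tested, 4 rose and 1 fell. Of all tested genes 0.0393% were called higher and 0.288% lower. Its median log2 fold change was 0.71, against -0.17 for all tested genes, and 0 without LY6D+SCA1high replicate 2, when 3 members were called. Without both set-aside libraries the median was 0.27, with 5 members called. The annexins were not called. Anxa2, which binds membranes in a calcium-dependent way and is the most abundant annexin here, stood at 460 and 495 CPM against 316 and 384 CPM. The gene that fell was Gsdma (chr11:98664351-98677708), another gasdermin. Gsdma was nearly absent from SCA1high cells, with 3 counts in both libraries together, against 3093 counts in SCA1low cells. Its levels were 0.135 and 0 CPM at SCA1high, 0.162 and 2.44 CPM at SCA1Int and 186 and 51.6 CPM at SCA1low. SCA1low was 1220 times SCA1high (95% interval 418 to 5940, counting error only; adjusted p = 0.00274). Gsdma thus moved against Gsdmc2 and Gsdmc3.

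Markers of the proximal luminal progenitor were called for Ly6a, the gate gene, alone, among 28 of 30 genes tested. The list's median was 0.71, with 18 positive and 10 negative log2 fold changes. Its summed level overlapped between the groups, at 1896 and 3403 CPM against 2155 and 1987 CPM. The groups did not overlap for 12 members with SCA1high higher and 4 with SCA1low higher, against 13.1% and 21.3% of tested genes. Psca, a surface protein of the same Ly6 family, stood at 86.3 and 150 CPM against 3.29 and 40.7 CPM (2.43 ± 0.99, adjusted p = 0.578). Clu, the secreted chaperone clusterin, stood at 108 and 330 CPM against 22.4 and 65.7 CPM (2.31 ± 0.76, adjusted p = 0.494). Both were named after their values were seen, and neither passed the test.

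Secreted proteins of the prostate were lower in SCA1high cells. Of 24 listed genes 22 were tested, and 9 fell and 0 rose: Spink1, Defb50, Pbsn, 9530053A07Rik, Sbp, Tgm4, Msmb, Gm5615 and Sbpl. Of all tested genes 0.288% were called lower. The list's median log2 fold change was -4.03, against -0.17 for all tested genes. The groups did not overlap, with SCA1low higher, for 16 of the 22, against 21.3% of all tested genes. The tested members summed to 2379 and 1768 CPM in SCA1high cells, 2795 and 3823 CPM in SCA1Int cells and 34043 and 24063 CPM in SCA1low cells. Without both set-aside libraries 9 members were called.

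Pbsn (chrX:77837901-77853623) encodes probasin, an androgen-regulated secreted lipocalin widely used as a marker of differentiated prostate epithelium. Pbsn stood at 105 and 99.5 CPM at SCA1high, 183 and 343 CPM at SCA1Int and 3910 and 3000 CPM at SCA1low. The replicates lay close together at both ends, at 102 ± 3.85 and 3460 ± 644 CPM (SD, n = 2 each). The log2 fold change was -5.08 ± 0.32 (SE; adjusted p = 2.04e-11). Spink1, a secreted inhibitor of trypsin-like proteases, was the most abundant of the secreted genes. It stood at 742 and 507 CPM, 653 and 1437 CPM, and 16940 and 9020 CPM in the order SCA1high, SCA1Int and SCA1low, a log2 fold change of -4.38 ± 0.35 (SE; adjusted p = 2.79e-09). Without LY6D+SCA1low replicate 2 the value for Spink1 was -5.1.

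Msmb (chr14:32142023-32158370) encodes beta-microseminoprotein, a major protein of prostatic secretion. Msmb stood at 13.5 and 50.9 CPM at SCA1high, 39.8 and 50.3 CPM at SCA1Int and 722 and 622 CPM at SCA1low. The SCA1high and SCA1Int libraries overlapped, and SCA1low stood apart from both by more than the spread of replicates (-4.39 ± 0.58 for SCA1high, adjusted p = 4.5e-05). Without LY6D+SCA1high replicate 1 and replicate 2 the value was -3.72 and -5.93. Sbp (chr17:23941672-23945607), which encodes spermine-binding protein, stood at 100 and 67.6 CPM, 67.9 and 450 CPM, and 1599 and 1187 CPM. Its log2 fold change was -4.05 ± 0.5 (SE; adjusted p = 1.71e-05). The neighbouring copy Sbpl fell by 4 on the log2 scale (SE 0.78, adjusted p = 0.00885), or had -5.24 without LY6D+SCA1high replicate 1, and 38.7% of the windows in the last 500 bases of Sbp also occur in Sbpl.

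Defb50 (chr8:21823539-21831296), a beta-defensin of the epithelial antimicrobial defence, also fell. It stood at 888 and 683 CPM at SCA1high, 865 and 712 CPM at SCA1Int and 3499 and 3722 CPM at SCA1low. SCA1high and SCA1Int overlapped, and SCA1low stood above both. The log2 fold change was -2.2 ± 0.25 (SE; adjusted p = 5.81e-06).

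Tgm4 (chr9:123034726-123067561) encodes the prostate transglutaminase, which cross-links seminal proteins. Tgm4 stood at 91.5 and 4 CPM at SCA1high, 181 and 138 CPM at SCA1Int and 1265 and 1573 CPM at SCA1low (-4.89 ± 0.7, adjusted p = 0.00015). The 2 SCA1high replicates differed widely, and without replicate 1 and replicate 2 the value was -8.47 and -4.23. Zdhhc3, a palmitoyltransferase gene on the opposite strand, had similar values: 95.5 and 17.4 CPM, 169 and 114 CPM, and 1129 and 1315 CPM (-4.43 ± 0.52, adjusted p = 5.81e-06). Without LY6D+SCA1high replicate 1 the value for Zdhhc3 was -6.13. The 3′ ends of both genes overlap by 1402 bases (chr9:123066160-123067561), and the strand setting of the counting is not given in the sources used here. Tags of Tgm4 and Zdhhc3 cannot be told apart in that stretch.

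**Figure D3:**
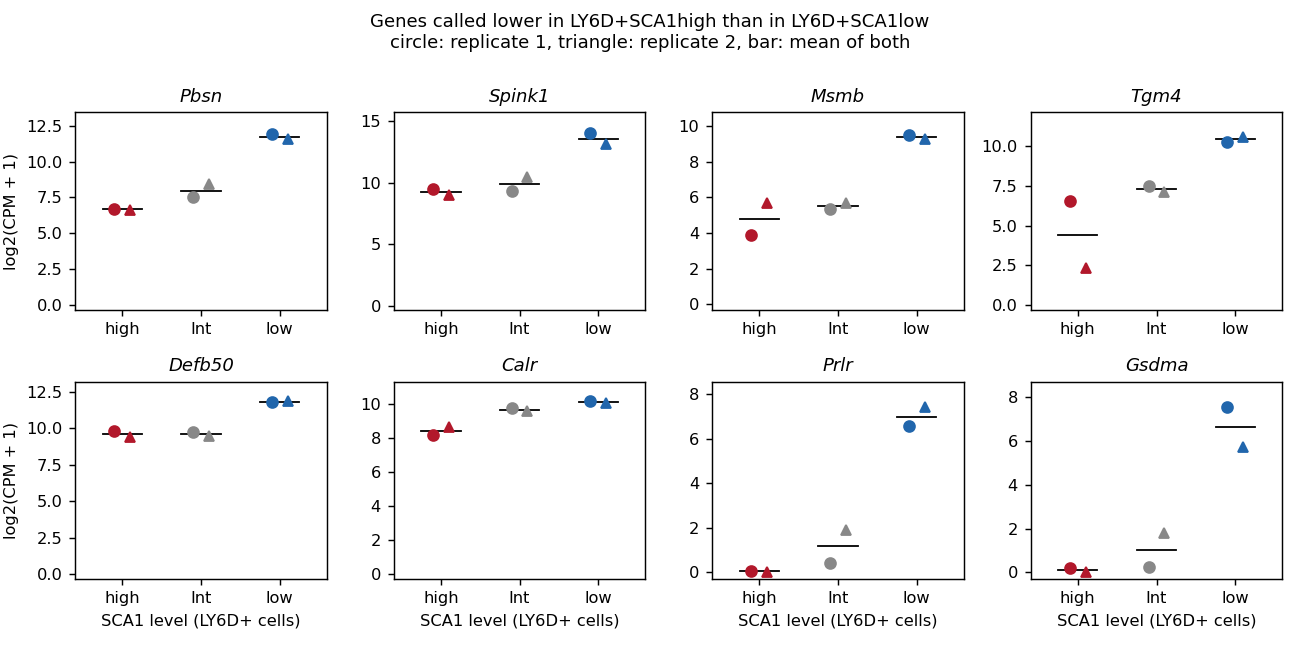
Level of 8 genes called lower in SCA1high, as log2(CPM + 1) on the vertical axis, by SCA1 level of the LY6D+ cells on the horizontal axis. Circles are replicate 1, triangles replicate 2 and bars the mean of both; for Pbsn, Spink1, Msmb, Defb50, Prlr and Gsdma the SCA1Int libraries lie nearer SCA1high, and for Calr nearer SCA1low.

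The smallest p-value of the comparison belonged to 9530053A07Rik (chr7:28129466-28164811), a gene with no given name. Its level was 108 and 60.9 CPM at SCA1high, 419 and 295 CPM at SCA1Int and 3426 and 3084 CPM at SCA1low, so that the groups formed separate steps. The log2 fold change was -5.27 ± 0.31 (SE; adjusted p = 5.13e-12). Its neighbour Fcgbp (chr7:28071236-28120862), which encodes a large mucus protein that binds the Fc part of IgG, stood at 5.17 and 0.706 CPM, 23.2 and 44.5 CPM, and 218 and 201 CPM. Fcgbp had a log2 fold change of -6.12 ± 0.79 (SE; adjusted p = 3.16e-05), and of -8.2 without LY6D+SCA1high replicate 1. Gm5615 and A630095E13Rik, both on chromosome 9 and outside the rule for named genes, fell by 6.85 (SE 0.94) and 5.49 (SE 0.64) on the log2 scale (adjusted p = 7.87e-05 and 5.81e-06). Gm5615 had -9.52 and A630095E13Rik -4.87 without LY6D+SCA1high replicate 1, and without LY6D+SCA1high replicate 2 A630095E13Rik had -6.94. Tcaf3 (chr6:42584866-42597692), which is related to regulators of the cold-sensing ion channel TRPM8, stood at 6.07 and 1.06 CPM, 67.7 and 25.1 CPM, and 870 and 423 CPM. The 3 populations formed steps, and the outer groups differed by -7.47 ± 0.74 (SE; adjusted p = 3.52e-07). Without LY6D+SCA1high replicate 1 the value for Tcaf3 was -9.24, and without LY6D+SCA1low replicate 2 it was -8.27.

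Further genes called lower were C1rb, Fgl1 and Prdx6, which were named after their values were seen. C1rb, a copy of the complement protease gene C1ra, fell by 3.27 on the log2 scale (SE 0.61, adjusted p = 0.00565), and 43.2% of the windows in its last 500 bases also occur in C1ra. Its SCA1low libraries stood apart, at 710 and 219 CPM, and without replicate 1 and replicate 2 of SCA1low C1rb had -2.27 and -4.2. Fgl1, a secreted fibrinogen-like protein, fell by 4.26 (SE 0.9, adjusted p = 0.0192), and without LY6D+SCA1high replicate 1 its adjusted p was 0.065. Fgl1 ranged from -5.21 to -3.12 when single libraries were left out. Prdx6, a peroxiredoxin that reduces peroxides, fell by 2 (SE 0.41, adjusted p = 0.0145), and without LY6D+SCA1high replicate 2 its adjusted p was 0.0568. The calls of Fgl1 and Prdx6 were thus each lost without 1 library. Among secreted genes that were not called, Ren1, the enzyme renin, stood at 4.59 and 0.235 CPM against 79.7 and 136 CPM (adjusted p = 0.0781). Mmp7, a matrix metalloprotease, stood at 34.7 and 57.2 CPM against 356 and 127 CPM (adjusted p = 0.199).

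Prlr (chr15:10177238-10349180), the receptor of the pituitary hormone prolactin, was close to undetected in SCA1high cells. The SCA1high libraries held 1 count together and the SCA1low libraries 3404. The levels were 0.045 and 0 CPM at SCA1high, 0.324 and 2.75 CPM at SCA1Int and 94.7 and 169 CPM at SCA1low. SCA1low was 4040 times SCA1high for Prlr (95% interval 725 to 160000, counting error only, adjusted p = 0.00796). Both SCA1Int libraries also lay below both SCA1low libraries, but that difference did not pass the test (-6.41 ± 1.75, adjusted p = 0.359). No other gene of the prolactin receptor and STAT5 list was called among 19 of 20 tested, and the list's median was 0.11. Stat5a, a transcription factor downstream of the receptor, stood at 51.4 and 0.588 CPM against 58.6 and 62.7 CPM. Stat5b, its close relative, stood at 13.8 and 16.3 CPM against 20.1 and 22.2 CPM. Igf1r, a growth factor receptor in the same list, stood at 60.6 and 32 CPM against 256 and 213 CPM, without a call (-2.34 ± 0.93, adjusted p = 0.578).

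Of the genes of protein folding in the ER, Calr and Sdf2l1 fell in SCA1high cells. Of 38 genes of ER chaperones, translocation and folding 36 were tested, and 2 fell and 0 rose, or 1 fell with library size as the only scaling. A negative log2 fold change was seen for 31 of the 36, against 54.5% of all tested genes. The groups did not overlap, with SCA1low higher, for 21, against 21.3% of all tested genes. The list's median was -0.91, against -0.17 for all tested genes, and -0.46 against 0.23 when library size alone was used for scaling. Its summed level was 4614 and 4843 CPM at SCA1high, 5054 and 3952 CPM at SCA1Int and 9453 and 8698 CPM at SCA1low.

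Calr (chr8:84841850-84846934) encodes calreticulin, a calcium-binding chaperone of glycoproteins. Calr stood at 287 and 399 CPM at SCA1high, 842 and 748 CPM at SCA1Int and 1146 and 1058 CPM at SCA1low. Unlike for Pbsn, Spink1, Msmb and Defb50, the SCA1Int libraries lay nearer SCA1low. The log2 fold change was -1.68 ± 0.32 (SE; adjusted p = 0.00796), and the call was lost without LY6D+SCA1high replicate 1 (-1.47, adjusted p = 0.0935) and with library size as the scaling (-1.25, adjusted p = 0.0878). Sdf2l1 (chr16:17130138-17132383), a partner of the chaperone BiP, stood at 0.135 and 0.235 CPM, 4.69 and 0.953 CPM, and 125 and 35.2 CPM. Sdf2l1 had a log2 fold change of -8.76 ± 1.78 (SE; adjusted p = 0.0139), and -8.36 without LY6D+SCA1high replicate 1, with the call lost (adjusted p = 0.0923). Without LY6D+SCA1low replicate 1 and replicate 2 Sdf2l1 had -7.65 and -9.71.

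Dnajc10 (chr2:80315466-80354043), an ER disulfide reductase that also binds BiP, was not in the list and fell with close replicates. It stood at 45.7 and 64.3 CPM at SCA1high, 119 and 80.9 CPM at SCA1Int and 579 and 555 CPM at SCA1low. The log2 fold change was -3.36 ± 0.48 (SE; adjusted p = 0.00015), and the call held in all 14 alternative analyses. Fkbp11, a prolyl isomerase of secretory cells that was named after its values were seen, had 1 count in SCA1high cells and 1104 in SCA1low cells. SCA1low was 1310 times SCA1high for Fkbp11 (95% interval 235 to 51800, counting error only; adjusted p = 0.0406), and the call was lost without either SCA1high replicate (adjusted p = 0.111 and 0.0992).

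Many ER chaperone genes carry the ER stress response element, which is bound by NF-Y and ATF6 and is written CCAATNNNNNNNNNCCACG. Both strands of the 250 bases before and 50 bases after the annotated RefSeq start (GRCm38.p6) were searched for it, and no other motif was searched. It occurs in 39 of 32851 such windows (0.119%). Of the 38 ER genes 30 have a window, and 8 hold the motif: Calr, Canx, Creld2, Dnajc3, Ero1b, Hsp90b1, Hspa5 and Pdia6. Of the 44 genes called lower 20 have a window, and Calr alone among these holds the motif. The 250 bases before the start are shown for Calr, which was called, and for the 3 other genes with the motif that have the highest level, which were not. Capitals mark the motif or its reverse complement, and each sequence runs 5′ to 3′ on the strand of its gene.

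Calr (chr8:84846932-84847181, minus strand): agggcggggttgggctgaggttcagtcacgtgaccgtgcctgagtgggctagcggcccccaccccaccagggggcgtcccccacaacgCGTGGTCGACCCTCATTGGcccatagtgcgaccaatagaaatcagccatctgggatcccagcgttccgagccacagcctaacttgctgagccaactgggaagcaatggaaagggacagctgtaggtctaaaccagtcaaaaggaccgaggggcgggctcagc
Hsp90b1 (chr10:86705445-86705694, minus strand): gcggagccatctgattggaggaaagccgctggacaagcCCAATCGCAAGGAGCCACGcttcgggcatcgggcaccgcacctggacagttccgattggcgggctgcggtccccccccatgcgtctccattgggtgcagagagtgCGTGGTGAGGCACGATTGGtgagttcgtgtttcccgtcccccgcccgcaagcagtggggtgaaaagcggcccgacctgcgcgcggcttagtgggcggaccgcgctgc
Hspa5 (chr2:34771840-34772089, plus strand): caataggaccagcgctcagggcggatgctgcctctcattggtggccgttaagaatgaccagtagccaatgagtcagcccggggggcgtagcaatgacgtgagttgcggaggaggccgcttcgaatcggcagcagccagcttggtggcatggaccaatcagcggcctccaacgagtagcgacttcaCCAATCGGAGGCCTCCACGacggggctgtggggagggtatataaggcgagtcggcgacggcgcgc
Pdia6 (chr12:17266339-17266588, plus strand): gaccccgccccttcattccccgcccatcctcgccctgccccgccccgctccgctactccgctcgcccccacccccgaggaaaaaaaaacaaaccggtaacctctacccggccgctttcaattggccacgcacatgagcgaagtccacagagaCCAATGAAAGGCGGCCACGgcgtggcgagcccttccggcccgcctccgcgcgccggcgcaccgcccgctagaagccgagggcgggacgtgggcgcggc

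These genes share the motif and had different log2 fold changes, with Calr alone called, and the difference between genes was not tested. Hspa5, the chaperone BiP, stood at 1450 and 1298 CPM at SCA1high, 842 and 1022 CPM at SCA1Int and 1808 and 2027 CPM at SCA1low (-0.48 ± 0.25, adjusted p = 0.591). It was lowest in SCA1Int. Hsp90b1, the ER form of the chaperone HSP90, stood at 239 and 198 CPM, 291 and 140 CPM, and 626 and 670 CPM (-1.57 ± 0.43, adjusted p = 0.21). Pdia6, a disulfide isomerase, stood at 130 and 201 CPM, 161 and 60.1 CPM, and 456 and 301 CPM (-1.2 ± 0.5, adjusted p = 0.578). In Hsp90b1 the motif occurs 2 times, from 212 and from 107 bases before the start. In the others it begins 162 (Calr), 65 (Hspa5) and 98 (Pdia6) bases before the start. A match describes these letters and no binding was measured.

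Regulators of the unfolded protein response were not called (0 of 16 tested, of 18 listed), and their median was -0.37. The most abundant, the stress-induced transcription factors Atf3 and Atf4, had log2 fold changes of 0.24 ± 0.38 and 0.17 ± 0.38 (adjusted p = 0.842 and 0.901). Genes of the list of luminal transcription factors were not called either (0 of 25), with 2 higher and 3 lower at an unadjusted p below 0.05. Hoxb13, a homeobox factor of the prostate, stood at 135 and 149 CPM against 203 and 235 CPM (-0.63 ± 0.69, adjusted p = 0.754). Klf4, a zinc-finger factor of epithelia, stood at 547 and 813 CPM against 227 and 528 CPM (0.85 ± 0.47, adjusted p = 0.591). The groups of Hoxb13 and Klf4 did not overlap, and their values lay in opposite directions. Of the 25 genes 8 were lower and 5 higher in SCA1high cells without overlap, against 21.3% and 13.1% of tested genes.

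Some transcripts of the mitochondrial genome fell in SCA1high cells. All 15 were tested, 4 fell and 0 rose, against 0.288% and 0.0393% of all tested genes. All 15 had a negative log2 fold change, against 54.5% of all tested genes. The median was -1.18, against -0.17 for all tested genes. Their summed share of all counts was 2.26% and 3.139% at SCA1high, 3.26% and 3.449% at SCA1Int and 4.907% and 4.368% at SCA1low. mt-Co1, a subunit of cytochrome oxidase, stood at 1469 and 1221 CPM against 3491 and 3075 CPM (-1.29 ± 0.24, adjusted p = 0.00626). mt-Rnr1, the small mitochondrial ribosomal RNA, stood at 1757 and 3763 CPM against 9962 and 6930 CPM (-1.61 ± 0.27, adjusted p = 0.00111), and had -2.57 without LY6D+SCA1high replicate 2. mt-Co2 shares its counts with the nuclear copy Gm28661. mt-Rnr2 fell by 1.29 (SE 0.27) and mt-Co2 by 1.22 (SE 0.25) on the log2 scale (adjusted p = 0.0157 and 0.0147). Without LY6D+SCA1high replicate 2 mt-Rnr2 had -2.47, and without LY6D+SCA1high replicate 1 mt-Co2 was not called (-1.06, adjusted p = 0.14). DESeq2 did not call mt-Rnr1 (adjusted p = 0.0527), mt-Rnr2 (adjusted p = 0.188) or mt-Co2 (adjusted p = 0.0809). Scaling by library size alone left 1 of the 15 called and a median of -0.73. Nuclear genes of oxidative phosphorylation were not called (0 of 38, median 0.01), nor were ribosomal protein genes (0 of 50, median -0.1).

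The features CT010467.1, Gm42418 and AY036118 lie in a repeat of ribosomal RNA on chromosome 17, and their share moved with the groups too. It was 6.97% and 16.8% of counts at SCA1high, 12.2% and 16.9% at SCA1Int and 24.4% and 19.5% at SCA1low. These 3 features overlap, were called lower and are not independent. DESeq2 called none of them (adjusted p = 0.19 for CT010467.1, 0.196 for Gm42418 and 0.202 for AY036118). Their log2 fold changes of -1.29, -1.27 and -1.26 moved to -2.58, -2.55 and -2.52 without LY6D+SCA1high replicate 2. Without them in the totals 47 genes were called. Other abundant RNAs called lower were Malat1, a nuclear long noncoding RNA, and Rn7sk, the small nuclear RNA that holds back the elongation factor P-TEFb. Malat1 stood at 4730 and 7099 CPM at SCA1high, 19155 and 15164 CPM at SCA1Int and 17165 and 12112 CPM at SCA1low (-1.31 ± 0.17, adjusted p = 4.94e-05), and had -1.94 without LY6D+SCA1high replicate 2. In DESeq2 Malat1 was not called (adjusted p = 0.0574). For Malat1 the SCA1Int libraries lay with SCA1low, and the overlapping feature Gm37376 gave the same pattern. Rn7sk stood at 58.1 and 231 CPM, 308 and 175 CPM, and 985 and 1024 CPM (-2.8 ± 0.45, adjusted p = 0.00101), and had -2.12 and -4.4 without LY6D+SCA1high replicate 1 and replicate 2. A called identifier without a symbol had the same counts as Rn7sk. Gm26315 and Gm24447, annotated as miscellaneous RNAs on chromosomes 2 and 15, had counts within 2% of each other in each library and count as 1 signal. Gm26315 stood at 54.4 and 156 CPM, 295 and 153 CPM, and 902 and 987 CPM. These levels lay near those of Rn7sk except in LY6D+SCA1high replicate 2. Whether these features share tags with Rn7sk was not tested, so they may not be a separate signal. The part of the changing share of ribosomal RNA in the other differences was not tested.

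Seminal vesicle transcripts were high in SCA1low cells. Of 10 listed genes 6 were tested and 3 fell, against 0.288% of all tested genes: Svs4, Svs5 and Spinkl. Their list summed to 609 and 757 CPM at SCA1high, 547 and 904 CPM at SCA1Int and 17903 and 3595 CPM at SCA1low. In LY6D- cells replicate 1 was also the higher at SCA1low (6236 and 487 CPM) and SCA1Int (4642 and 1616 CPM). At LY6D-SCA1high it was the lower (280 and 605 CPM). The cause of the gap between replicates was not tested. Svs5 (chr2:164332740-164334396), a protein of the seminal fluid, stood at 157 and 150 CPM, 215 and 420 CPM, and 8099 and 1254 CPM. Its SCA1low libraries lay far apart, yet both lay above all other LY6D+ libraries (-4.93 ± 0.82, adjusted p = 0.00116). Without LY6D+SCA1low replicate 1 and replicate 2 Svs5 had -3.12 and -6.04. Svs4 (chr2:164275952-164278459), its neighbour, stood at 8.77 and 80.8 CPM against 3077 and 607 CPM (-5.37 ± 1.01, adjusted p = 0.00626), with a range of -8.08 to -3.78 when single libraries were left out. Spinkl, a protease inhibitor-like protein, stood at 21.7 and 0.235 CPM against 3079 and 467 CPM (-7.32 ± 1.56, adjusted p = 0.0215), with a range of -12.83 to -5.57. Pate4 stood at 263 and 432 CPM against 3258 and 969 CPM without a call (adjusted p = 0.328). The same SCA1low libraries held Pbsn at 3910 and 3000 CPM. The part of material from the seminal vesicle in the fall of the prostatic secreted genes was not tested.

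Markers of other cells were mostly uncalled. Basal epithelial markers (25 of 25 tested) were not called, had a median of 0.36 and summed to 6041 and 5969 CPM at SCA1high against 3709 and 4919 CPM at SCA1low. Krt15 stood at 2626 and 2644 CPM against 1063 and 1223 CPM (1.2 ± 0.43, adjusted p = 0.578), and Krt14 at 539 and 679 CPM against 161 and 193 CPM (1.78 ± 0.56, adjusted p = 0.403). Both are keratins of basal cells, and their groups did not overlap. Dst, a further basal marker, went the other way without overlap. It stood at 439 and 344 CPM against 526 and 643 CPM (-0.58 ± 0.5, adjusted p = 0.685). Of the 25 markers 16 had a positive and 9 a negative log2 fold change. The groups did not overlap for 6 with SCA1high higher and 5 with SCA1low higher, against 13.1% and 21.3% of tested genes. Krt5 stood at 359 and 608 CPM against 186 and 460 CPM (0.58 ± 0.61, adjusted p = 0.743), and its direction turned without LY6D+SCA1high replicate 2 (-0.09).

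Endothelial markers (20 of 20 tested) summed to 285 and 548 CPM at SCA1high, 94.3 and 359 CPM at SCA1Int and 71 and 222 CPM at SCA1low, with a median of 2.11. Pecam1, which encodes the sorted-out protein CD31, stood at 38.3 and 47.6 CPM against 3.75 and 11.3 CPM (2.51 ± 0.95, adjusted p = 0.578). The one called member, Mcam, moved the other way, from 28 and 54.2 CPM at SCA1low to 2 counts in both SCA1high libraries. The ratio of SCA1low to SCA1high was 631 for Mcam (95% interval 174 to 5210, counting error only; adjusted p = 0.0165), and the call was lost without LY6D+SCA1high replicate 1 (adjusted p = 0.151). SCA1 is itself present on endothelial cells, and the part of such cells in the genes that rose was not tested.

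Fibroblast and smooth muscle markers (21 of 24 tested, 1 higher, median 2.74) summed to 2005 and 3035 CPM against 1083 and 1378 CPM, and the called member is Gsn. Without Gsn, which supplies most of that difference, they summed to 1019 and 1743 CPM against 970 and 1072 CPM. The median was 0.43 without LY6D+SCA1high replicate 1. Of the 21 tested markers 16 had a positive and 5 a negative log2 fold change. Dcn, the matrix proteoglycan decorin of fibroblasts, stood at 641 and 857 CPM against 726 and 807 CPM (-0.03 ± 0.38, adjusted p = 0.995). Tpm2, a tropomyosin, went the other way from Gsn, at 7.28 and 39 CPM against 120 and 97.9 CPM. Its log2 fold change was -2.23 ± 1.49 (adjusted p = 0.614). The part of fibroblasts and smooth muscle in the rise of Gsn was not tested. Leukocyte markers (11 of 24 tested, 0 called) summed to 44.6 and 96.7 CPM against 211 and 172 CPM. The highest of these at SCA1low in replicate 1 was Cd52, at 0.764 and 0 CPM against 204 and 79.2 CPM (adjusted p = 0.109), while Ptprc, the gene of the sorted-out protein CD45, had 0 counts in all 4 libraries. Ionocyte-like markers (6 of 9 tested) were not called. Foxi1, their transcription factor, had 0 counts at SCA1high and 755 at SCA1low, at least 299-fold higher against 3 counts over the group, but nearly all of these came from LY6D+SCA1low replicate 2 (58.5 against 0.23 CPM). Neuroendocrine markers passed the filter for 0 of 9 genes. Erythroid and urothelial markers were not called (0 of 5 tested each).

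**Figure D4:**
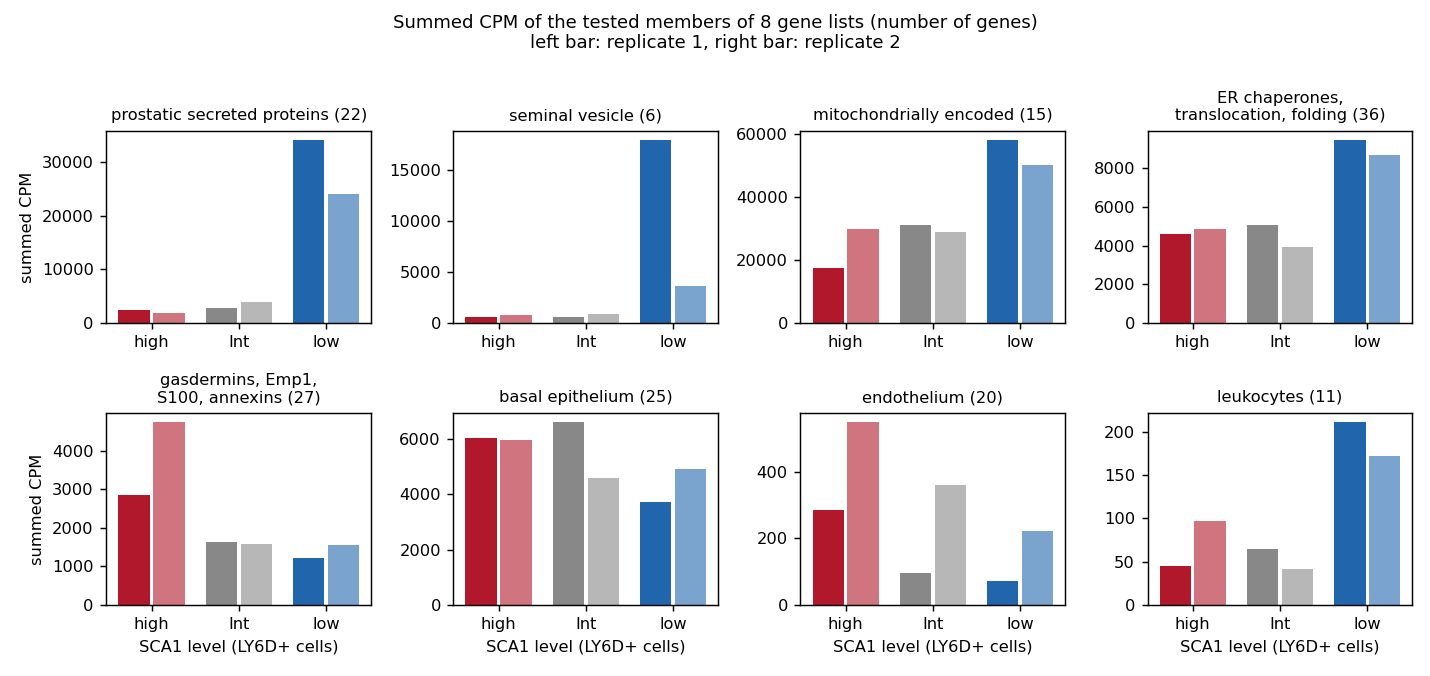
Summed level in CPM (vertical axis, from 0, on a scale of its own in each panel) of the tested genes of 8 lists by SCA1 level of the LY6D+ cells. Left bars are replicate 1 and right bars replicate 2; secreted, seminal vesicle, mitochondrial and ER genes are highest at SCA1low, and the gasdermin, Emp1, S100 and annexin list at SCA1high.

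The remaining lists held no called gene. Their numbers of tested genes are in brackets: luminal keratins and simple epithelial genes (13 tested), stratified keratins and cornified envelope (15), claudins and tight junctions (19), immediate early and heat shock genes (39), ERK feedback (19), NF-kB feedback and targets (21), interferon response and MHC class I (36), cell cycle (24), polyamine synthesis (14), metallothioneins and zinc transport (14) and glutathione, aldehyde and xenobiotic metabolism (29). Cldn4, a claudin of tight junctions, stood at 1611 and 1635 CPM against 1738 and 1738 CPM, with a log2 fold change of -0.1 ± 0.34. Hsp90ab1, a cytosolic chaperone, stood at 1935 and 2001 CPM against 2749 and 3875 CPM (-0.75 ± 0.22, adjusted p = 0.303). B2m, the light chain of MHC class I, stood at 339 and 356 CPM at SCA1high, 130 and 137 CPM at SCA1Int and 1111 and 672 CPM at SCA1low (-1.36 ± 0.38, adjusted p = 0.252). Its lowest level was thus at SCA1Int. Aldh1a1, an enzyme of retinoic acid synthesis, stood at 627 and 469 CPM against 246 and 266 CPM (1.1 ± 0.67, adjusted p = 0.605).

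The SCA1Int population was set against both ends in the same fit, and these comparisons share libraries with the one above. SCA1high against SCA1Int called 4 genes, all lower (0.0262%), and SCA1Int against SCA1low called 26, all lower (0.17%). Pbsn differed by -1.36 in the upper step (adjusted p = 0.0947) and by -3.72 ± 0.3 (SE) in the lower step (adjusted p = 1.69e-08). 9530053A07Rik passed the test in both steps, at -2.08 (adjusted p = 0.000161) and -3.19 (adjusted p = 4.83e-08). Malat1 passed it in the upper step alone, at -1.54 (adjusted p = 2.48e-05) against 0.23 (adjusted p = 0.822) in the lower. S100a6 passed it in neither, at 0.9 (adjusted p = 0.846) and 2.17 (adjusted p = 0.0592). The difference between the steps was not tested.

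The same contrast in LY6D- cells rests on 4 other libraries, though both share the estimate of the spread. Endothelial markers summed to 4921 and 5937 CPM in LY6D-SCA1high cells and to 494 and 931 CPM in LY6D-SCA1low cells. In LY6D+SCA1high cells they summed to 285 and 548 CPM. The part of endothelial cells in the LY6D- contrast and in the interaction was not tested. The LY6D- contrast called 97 genes, 37 higher (0.242%) and 60 lower (0.393%). Of the 44 genes lower in LY6D+ cells 34 were also called lower in LY6D- cells, which is 34 of the 60 there, and 43 had a negative log2 fold change. Of the 6 higher genes 4 were also called higher, of 37 there, and all 6 had a positive one. Pbsn had -4.68 ± 0.32 in LY6D- cells (adjusted p = 6.54e-11), and S100a6 had 2.72 ± 0.49 (adjusted p = 0.00237). Gsdmc2 had 3.07 ± 1 (adjusted p = 0.274) and Prlr -3.33 ± 1.51 (adjusted p = 0.689), neither called. The difference between the LY6D+ and LY6D- effects did not pass the interaction test for either gene (adjusted p = 0.65 each).

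That interaction test called 6 of 15270 genes (0.0393%), 2 with a positive difference (0.0131%) and 4 with a negative one (0.0262%): Nfkbia, Mt2, Tgm2, Defb50, Ier3 and Dusp6. Dusp6, the phosphatase that switches off ERK, stood at 917 and 1029 CPM in LY6D+SCA1high and 628 and 1208 CPM in LY6D+SCA1low cells, so these overlapped. In LY6D- cells Dusp6 stood at 158 and 413 CPM at SCA1high and at 16.5 and 28.4 CPM at SCA1low. The difference of the effects was -3.58 ± 0.69 on the log2 scale (SE; adjusted p = 0.039). Mt2, a zinc-binding metallothionein, stood at 4913 and 3165 CPM in LY6D+SCA1high against 3754 and 3548 CPM in LY6D+SCA1low cells. The corresponding LY6D- values were 1190 and 878 CPM against 3865 and 3458 CPM (1.97 ± 0.34, adjusted p = 0.0235). For 5 of the 6 genes, all but Defb50, the SCA1 groups overlapped in LY6D+ cells. Defb50 fell in both states, by 2.2 in LY6D+ and by 4.08 in LY6D- cells on the log2 scale (difference 1.88 ± 0.35, adjusted p = 0.0284).

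**Figure D5:**
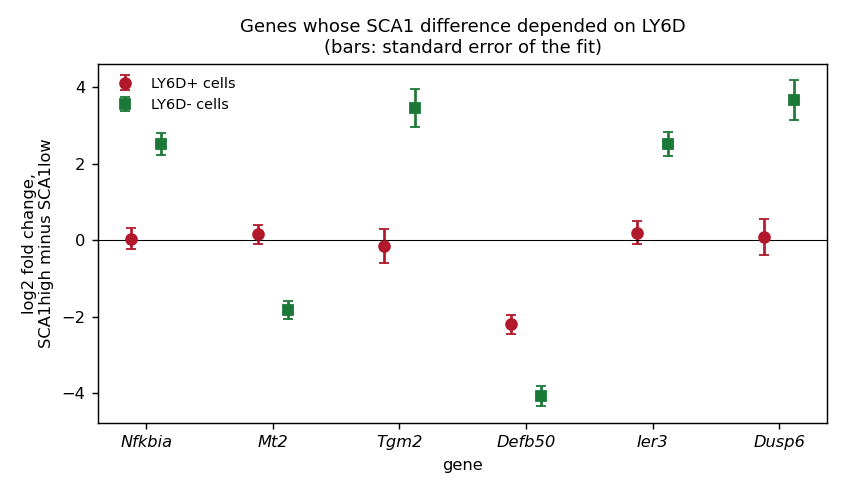
Log2 fold change of SCA1high minus SCA1low (vertical axis) with the standard error of the fit for the 6 genes whose SCA1 effect differed by LY6D. Red circles are LY6D+ cells and green squares LY6D- cells; 5 of the 6 circles lie near 0, and Defb50 lies below 0 in both.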

How the data were processed

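The read counts per gene were deposited by the authors as whole numbers, together with a normalised signal table. Per the submitters' processing notes, cutadapt 1.9.1, STAR 2.5.1, SAMtools 1.3.1, Picard 1.96, Subread featureCounts and edgeR were used with the mm10 build. The sources used here give no order, settings, annotation or strand setting for these. The deposited signal equals CPM times 1 factor per library. The tests used the counts as deposited. Of 48795 identifiers 446 have no symbol and hold 0.4755% of counts. Genes were kept by edgeR's filterByExpr by population, scaled by TMM and fitted in edgeR 4.0.16 (R 4.3.3) with 1 mean for each of the 6 populations over all 12 libraries, giving 6 residual degrees of freedom and a common dispersion of 1.65. Unless another tool is named, p-values come from glmQLFTest in edgeR, adjusted over the 15270 tested genes by the method of Benjamini and Hochberg, and a gene was called below 0.05. SE is that of the log2 fold change. Ratios for near-absent genes come from summed counts, with exact binomial 95% intervals. The script was tested on simulated counts.

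Coordinates are from GENCODE M21 (GRCm38, which is mm10) and promoters from RefSeq. Named genes were the gate genes and the markers Emp1, Gsdmc2, Prlr and Pbsn. To these came up to 12 genes per direction with the smallest p among named, non-overlapping genes of at least 20 CPM in the higher group. Called members of each list, up to 6, were added, or its 2 most abundant members where none was called (3 for other cells), and 6 interaction genes. Uncalled genes outside this rule were chosen after their values were seen. The members and lists were chosen with earlier results of these data known. Alternatives were other scalings, no filter, DESeq2 1.42.0, limma 3.58.1 on the deposited signal (pseudocount 1), a 1.5-fold test and a replicate block. Others left out the ribosomal RNA features, fitted the 4 libraries alone, or left out each SCA1high or SCA1low library in turn. Fits without a single LY6D- library served the interaction alone, and no SCA1Int library was left out. One more, without both set-aside libraries, was chosen after seeing the data.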

Additional observations from a re-analysis of the deposited data

Results flagged for a closer look

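For 6 genes the SCA1 effect differed between LY6D+ and LY6D- cells in edgeR's interaction test, each value being the LY6D+ minus the LY6D- effect on the log2 scale. The difference was -2.48 ± 0.39 (SE) for Nfkbia, the inhibitor of NF-kB (adjusted p = 0.0131). Nfkbia stood at 1117 and 1359 CPM against 992 and 1422 CPM at LY6D+SCA1high and LY6D+SCA1low. Its LY6D- levels were 3572 and 3679 CPM against 549 and 715 CPM. For Mt2 the difference was 1.97, for Defb50 1.88 and for Dusp6 -3.58, with the levels given above. Tgm2, a tissue transglutaminase, had -3.61 ± 0.66 (SE; adjusted p = 0.0284), with 716 and 617 CPM against 639 and 835 CPM in LY6D+ cells. In LY6D- cells Tgm2 stood at 536 and 504 CPM against 24.4 and 70 CPM. Ier3, an immediate early gene, had -2.31 ± 0.43 (SE; adjusted p = 0.0284), from LY6D- levels of 2106 and 2018 CPM at SCA1high and 294 and 430 CPM at SCA1low. In LY6D+ cells Ier3 stood at 1769 and 1543 CPM against 1204 and 1670 CPM. None of the 6 was called against a 1.5-fold change or by limma-trend. The part of endothelial cells in the LY6D- levels of these genes was not tested.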

How the results depend on the processing

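Of the 50 called genes 14 kept call and direction in all 14 alternatives and 0 reversed. Against 50 calls (6 higher, 44 lower), no filter gave 94 (11 and 83), DESeq2 1051 (363 and 688), limma-trend 28 (2 and 26) and the 4 libraries alone 18 (1 and 17). Library size as the only scaling gave 13 higher genes and leaving out both set-aside libraries 12. Leaving out single libraries gave 64 to 89 calls, 5 to 15 higher and 59 to 74 lower. Each fit that left out a library kept 1 library in that population, so more calls there are no stronger result. The replicate block gave 65 calls, 12 higher and 53 lower. The replicate numbers go with the library name prefixes, whose meaning is not stated, and correlations between deviations of same-numbered libraries were -0.2 to 0.13 (2 of 15 over 0.1), so the numbers were not taken as pairs. Against 6 interaction calls, RLE factors gave 2, no filter 17, DESeq2 492, the 1.5-fold test 0, limma-trend 0, and leaving out both set-aside libraries 22. Leaving out single libraries gave 9 to 32, the most without LY6D-SCA1low replicate 2. Ly6a ranged from 3.9 to 5.67 without single libraries and had 4.63 in the 4 libraries alone (adjusted p = 0.132). Krt5 ranged from -0.09 to 1.08 without single libraries, and reversed without LY6D+SCA1high replicate 2. The cause of these changes was not tested. Depth limits genes of low level most in LY6D+SCA1high replicate 2, with 8436185 counts and 7512 genes of at least 10 counts.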
